A study of Mus musculus with 16 samples.

Results

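The regions described here are the 334 stretches of the mouse genome in a union table of 5-hydroxymethylcytosine (5hmC) regions that the table assigned to a microRNA gene, that is, to a gene symbol beginning with Mir followed directly by a digit or by let. They made up 0.188% of the 177720 regions in the table and fell under 88 of its 15543 gene symbols, among them 5 let-7 genes and 3 host genes of microRNAs. 5hmC was mapped by CMS-IP, in which bisulfite turns 5hmC into cytosine-5-methylenesulfonate and an antiserum against that product pulls the fragments down. The 4 groups of CD4 T cells, with 2 libraries each, were taken or grown from the lymph nodes and spleen of C57BL/6 mice aged 5 to 6 weeks that carry a Foxp3-eGFP reporter. RA+VitC iTreg were induced regulatory T cells made in culture from naive CD4 T cells with TGFβ, retinoic acid and vitamin C. TGFβ iTreg were made likewise with TGFβ alone. Treg were sorted from the mice as CD4+eGFP+ cells, and naive cells as CD4+eGFP-CD25-CD62LhiCD44lo cells. Retinoic acid and vitamin C were always given together, both iTreg groups received TGFβ, and no culture without TGFβ was compared, so the separate parts of these agents cannot be told apart. The labels do not state that the 2 libraries of a group came from separate mice or cultures, so p-values measure the spread between libraries, which may be technical.

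MicroRNAs are short RNAs cut from longer transcripts by Drosha and Dicer that guide Argonaute proteins to messenger RNAs, chiefly through the seed at their 5′ end, and lower the output of those messages. Tet enzymes make 5hmC by oxidising 5-methylcytosine, with vitamin C as an aid to their activity, and in T cells 5hmC is known to mark gene bodies and enhancers of active genes. T cells that lack Dicer fail to keep up a working regulatory T cell pool, and single microRNAs such as miR-155, miR-146a, miR-10a and miR-17 have known parts in the number, stability or function of regulatory T cells.

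Of the 88 symbols, 76 were matched to 134 mature microRNAs in RefSeq (GRCm38.p6), and 8 seeds were shared by more than 1 symbol. The sequences below are shown because the largest differences in 5hmC, and the contrasts between microRNAs of 1 seed, concern these microRNAs. Each runs 5′ to 3′, and capitals mark the seed, bases 2 to 8.
miR-155-5p: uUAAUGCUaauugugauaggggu
miR-146a-5p: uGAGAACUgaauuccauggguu
miR-146b-5p: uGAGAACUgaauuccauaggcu
miR-10a-5p: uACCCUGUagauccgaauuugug
miR-29a-3p: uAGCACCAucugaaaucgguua
miR-29b-3p: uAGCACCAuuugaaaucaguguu
miR-17-5p: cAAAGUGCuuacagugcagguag
miR-363-3p: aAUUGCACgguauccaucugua
miR-92b-3p: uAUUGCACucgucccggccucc
miR-148a-3p: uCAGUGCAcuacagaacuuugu
miR-34a-5p: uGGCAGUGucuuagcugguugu
miR-449c-5p: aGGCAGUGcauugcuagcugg
miR-182-5p: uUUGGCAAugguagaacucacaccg
miR-183-5p: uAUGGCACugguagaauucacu
miR-138-5p: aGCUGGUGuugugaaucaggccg
let-7a-5p: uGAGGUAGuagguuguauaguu
let-7i-5p: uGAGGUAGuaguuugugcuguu

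The 8 pull-down libraries held 1648804 to 9731897 reads in the regions of the table and the 8 inputs 1028822 to 1563165, with the TGFβ iTreg pull-downs the smallest. Reads in regions were 1.49 to 1.72 times those of the input in TGFβ iTreg, 3.14 to 3.88 times in RA+VitC iTreg and 4.9 to 6.39 times in the sorted cells, and the part of this difference in the results was not tested beyond the thinning to equal depth given in the closing section. Of 10 listed T cell genes 9 had regions in the table. Of these 9, 6 were lower in RA+VitC iTreg, 7 in TGFβ iTreg and 7 in Treg, each against naive cells, where 26.6%, 18.2% and 19.2% of all symbols were. Tcf7 was higher in RA+VitC iTreg and TGFβ iTreg than in naive cells (log2 difference 0.22 ± 0.06 and 0.20 ± 0.06). The 9 genes had sums of 1336 to 1342, 1069 to 1274, 1322 to 1370 and 1556 to 1573 CPM (reads scaled to a common library total) in RA+VitC iTreg, TGFβ iTreg, Treg and naive cells. 5hmC over the 6 Treg marker genes summed to 3301 to 3448 CPM in RA+VitC iTreg, 2725 to 3082 in TGFβ iTreg, 2303 to 2312 in Treg and 840.2 to 855.8 in naive cells. Foxp3 itself was not called between TGFβ iTreg and naive cells (log2 difference 0.19 ± 0.21, edgeR adjusted p = 0.493). The 2 CD8 genes summed to 78.9 to 83.3 CPM in RA+VitC iTreg and 99.4 to 101.5 CPM in TGFβ iTreg, against 215.6 to 222.9 CPM in Treg and 246.3 to 247.6 CPM in naive cells, the 7 B cell genes to 153.5 to 185.3 CPM and the 6 myeloid genes in the table to 146.2 to 210.9 CPM over all groups. These sums hide single genes that moved in opposite directions. In RA+VitC iTreg against naive cells, 2 of 7 tested B cell genes were higher and 1 lower, and 1 of 5 tested myeloid genes was higher and 2 lower. Over all symbols 29.2% were higher and 26.6% lower there. Adgre1 (log2 2.21 ± 0.14) and Pax5 (1.59 ± 0.26) rose, and Itgax (-1.39 ± 0.16) and Itgam (-0.97 ± 0.08) fell. The part of the CD8, B cell and myeloid genes in the microRNA results was not tested.

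The microRNA regions lay mostly away from the genes they were assigned to. Only 52 of the 334 overlapped the microRNA's own transcript, 15.6%, against 62.5% of all regions in the table. The other 282 lay at a median of 9806 bp from it, up to 191774 bp, with 131 upstream and 151 downstream. By the table's annotation 242 regions, 72.5%, were on no part of any gene, against 34.3% of all regions, and 71 touched a promoter. Their median width was 713.5 bp, against 745 bp over all regions, and together they covered 488 kb. A symbol had a median of 3 regions and at most 20, and 27 symbols had 1. The table assigned 1256 of the 1716 regions whose nearest start was that of a microRNA to another symbol, such as the gene around it, so microRNAs inside introns of host genes are mostly not covered here.

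5hmC over microRNA regions took a larger share of the pull-down in the 3 regulatory groups than in naive cells. RA+VitC iTreg had shares of 0.296% and 0.279%, TGFβ iTreg 0.213% and 0.225%, Treg 0.2% and 0.199%, and naive cells 0.164% and 0.166%. The groups did not overlap, and the share in the inputs was 0.166% to 0.191%. Mir29b-1 alone held 35.1% and 32.4% of the reads over microRNA regions in RA+VitC iTreg, against 14.7% and 15.7% in naive cells. Without it, a calculation added after the data were seen, RA+VitC iTreg had shares of 0.192% and 0.188%, TGFβ iTreg 0.172% and 0.179%, Treg 0.167% and 0.166%, and naive cells 0.14% and 0.14%. Inputs counted without Mir29b-1 gave 0.147% to 0.169%. Both iTreg groups then stood above their own inputs, at 0.159% and 0.147% (RA+VitC iTreg) and 0.162% and 0.16% (TGFβ iTreg). Treg pull-downs lay near their inputs (0.162% and 0.168%), and naive pull-downs lay below theirs (0.162% and 0.169%). A bulk pull-down cannot tell more cells with 5hmC at a site from more 5hmC per cell, here or below.

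Differences were tested with edgeR on all symbols and on all regions of the table, and p-values were adjusted over all of them. Of the microRNA symbols, 82 passed the filter on low counts and were tested among 14951 symbols, and 245 of the 334 regions were tested among 135412. Mir1199, Mir190b, Mir34b, Mir674, Mir718 and Mir9-3 were too thinly covered to be tested. A symbol or region is called here where its adjusted p was under 0.05, and its log2 fold change is given ± standard error. Pull-down values in CPM are scaled by edgeR's TMM factors, which centre the bulk of all symbols near 0. Input values in CPM are scaled by the total input reads in regions, without TMM factors, so pull-down and input values compare only roughly. With plain library sizes the median log2 fold change over all symbols was -0.172 for RA+VitC iTreg against naive cells, -0.18 against Treg and -0.108 against TGFβ iTreg, so that all values here are relative to the bulk of symbols. Counts of calls under plain library sizes or other alternative settings are given below without the share of all symbols or regions under the same setting. They cannot be set against the shares of all symbols or regions given, which are from TMM scaling with all pull-downs. The comparisons share groups and are not independent of one another. None of the 53 microRNA symbols or 76 microRNA regions that could be tested with edgeR in the inputs was called in any of the 6 comparisons, and between 1 and 6 had an unadjusted p under 0.05. Over all symbols in the inputs 0%, 0.0156%, 0.0234%, 0%, 0.0702% and 0.281% were called for Treg, TGFβ iTreg and RA+VitC iTreg against naive cells, RA+VitC iTreg against TGFβ iTreg, and TGFβ iTreg and RA+VitC iTreg against Treg, and over all regions 0%, 0.00223%, 0.00668%, 0%, 0.00223% and 0.00445%.

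Summed per symbol, and among symbols that met the naming rule given below, sorted Treg and naive cells differed most at Mir155, whose 5hmC was 3.4-fold higher in Treg. Mir146, Mir22hg, Mir182, Mir183 and Mir34a were higher as well, by 2.24-fold to 3.13-fold. Mir205, Mir150, which is abundant in resting lymphocytes and represses Myb, and Mir802 were lower. The call of Mir802 (-0.44 ± 0.08) was lost with only regions within 10 kb of a start (-0.128, edgeR adjusted p = 0.777) and when libraries were thinned to equal depth (-0.194, adjusted p = 0.446). Among the symbols named above, thinning also lost the calls of Mir34a (0.692, edgeR adjusted p = 0.259), Mir22hg (1.78, 0.13) and Mir150 (-0.486, 0.0512). Of the 82 symbols, 21 were higher in Treg, 25.6%, against 20% of all symbols, and 8 were lower, 9.76%, against 19.2%. Of the 245 regions, 42 were higher, 17.1%, against 13% of all regions, and 18 were lower, 7.35%, against 10.1%. Leaving out either library of either group left 7 to 11 regions lower. Among regions that met the naming rule given below, the largest rise in Treg was at 1 region of Mir3089 (6.98-fold, log2 2.80 ± 0.33, edgeR adjusted p = 2.72e-15). That region was lower in TGFβ iTreg than in Treg (-1.57 ± 0.46, edgeR adjusted p = 0.00704). Summed over its 10 regions, Mir3089 was 1.3-fold higher in Treg than in naive cells. The median log2 fold change was 0.06 over the microRNA symbols and -0.00 over all symbols. The calls of Mir219a-2 (-0.78 ± 0.29), Mir760, Mir31, Mir30a, Mir17 and Mir23a were lost in edgeR when a single library was left out, with adjusted p of 0.0526 to 0.328 then.

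Summed per symbol, and among symbols that met the naming rule given below, TGFβ iTreg differed from naive cells most at Mir34a (6.21-fold higher), Mir22hg (5.7-fold), Mir92b (4.68-fold), Mir182 (4.16-fold) and Mir138-2 (4.09-fold). Among the same symbols Mir1932, Mir205, Mir760, Mir345 and Mir1934 had the strongest falls, of 0.69 to 0.92 on the log2 scale. Of the 82 symbols, 26 rose, 31.7%, against 23.4% of all symbols, and 7 fell, 8.54%, against 18.2%. With plain library sizes 23 rose and 12 fell. Of the regions, 53 rose, 21.6%, against 13.1% of all regions, and 18 fell, 7.35%, against 8.28%. Without TGFβ iTreg replicate 2 the number of regions that rose was 32, and without TGFβ iTreg replicate 1 or replicate 2 the number that fell was 7 or 8. The call of Mir345 was lost without either TGFβ iTreg library or naive replicate 2 (edgeR adjusted p 0.0946 to 0.27).

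RA+VitC iTreg and naive cells gave the most calls. Mir10a was 7.44-fold higher, Mir92b 6.98-fold, Mir22hg 5.48-fold, Mir138-2 5.36-fold and Mir1941 4.98-fold, while Mir205 was 3.19-fold lower and Mir1932 2.26-fold lower. Of the 82 symbols, 33 were higher in RA+VitC iTreg, 40.2%, against 29.2% of all symbols, and 16 were lower, 19.5%, against 26.6%. With plain library sizes these counts were 28 and 22. Of the regions, 88 were higher, 35.9%, against 21.9% of all regions, and 36 were lower, 14.7%, against 15.8%. The median absolute log2 fold change was 0.72 over the microRNA symbols and 0.41 over all symbols. Without either RA+VitC iTreg library 23 regions were lower. Without RA+VitC iTreg replicate 1 the number of symbols that were lower was 10, and Mir219a-2 was no longer called (edgeR adjusted p = 0.12).

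RA+VitC iTreg and TGFβ iTreg differ by retinoic acid and vitamin C. Summed per symbol, and among symbols that met the naming rule given below, they differed most at Mir10a (4.36-fold higher in RA+VitC iTreg), Mir363 (2.83-fold), the thinly covered Mir146b (2.7-fold) and Mir29b-1 (2.38-fold). Mir30a, with a mean of 17.75 reads and so outside that rule, was 3.21-fold lower (log2 -1.68 ± 0.55, edgeR adjusted p = 0.016). Mir34a was 1.64-fold lower and Mir205 1.71-fold lower. Of the 82 symbols, 16 were higher, 19.5%, against 12.4% of all symbols, and 4 were lower, 4.88%, against 10.7%. Of the regions, 20 were higher, 8.16%, against 4.6% of all regions, and 4 were lower, 1.63%, against 1.98%, and with plain library sizes 16 were higher and 7 lower. Without TGFβ iTreg replicate 1 only 9 symbols and 11 regions were higher, and 0 to 2 regions were lower when any 1 library was left out. Without RA+VitC iTreg replicate 1, 2 symbols were lower. Without TGFβ iTreg replicate 2 a single symbol was lower, and the calls of Mir205, Mir150 and Mir30a were lost (edgeR adjusted p 0.11 to 0.482), as was that of Mir205 without RA+VitC iTreg replicate 1 (0.163).

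TGFβ iTreg were higher than Treg at Mir138-2 (4.83-fold), Mir1941 (4.13-fold), Mir92b (3.12-fold) and Mir34a (2.7-fold), and lower at Mir1932, Mir1934 and Mir146. Of the 82 symbols, 19 were higher in TGFβ iTreg, 23.2%, against 20.7% of all symbols, and 6 were lower, 7.32%, against 15.1%. With plain library sizes these were 18 and 10, and without TGFβ iTreg replicate 1 only 2 were lower, with Mir1932 and Mir1934 among the calls lost (edgeR adjusted p 0.069 and 0.0557). Of the regions, 32 were higher, 13.1%, against 9.55% of all regions, and 12 were lower, 4.9%, against 5.88%. Without TGFβ iTreg replicate 2 the number of regions that were higher was 14, and without either TGFβ iTreg library 6 regions were lower.

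RA+VitC iTreg were higher than Treg at Mir138-2 (6.33-fold), Mir10a (5.61-fold), Mir1941 (5.3-fold), Mir92b (4.66-fold) and Mir29b-1 (3.33-fold). They were lower at Mir205 (2.08-fold), Mir31 (1.85-fold) and Mir1932 (1.77-fold). Of the 82 symbols, 26 were higher, 31.7%, against 26.6% of all symbols, and 14 were lower, 17.1%, against 23.1%. With plain library sizes 24 were higher and 20 lower, and without RA+VitC iTreg replicate 1 the number that were lower was 8. Of the regions, 66 were higher, 26.9%, against 17.8% of all regions, and 26 were lower, 10.6%, against 11.4%, with 52 and 41 under plain library sizes. Without RA+VitC iTreg replicate 1 or replicate 2 the number of regions that were lower was 15 or 12.

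**Figure D1:**
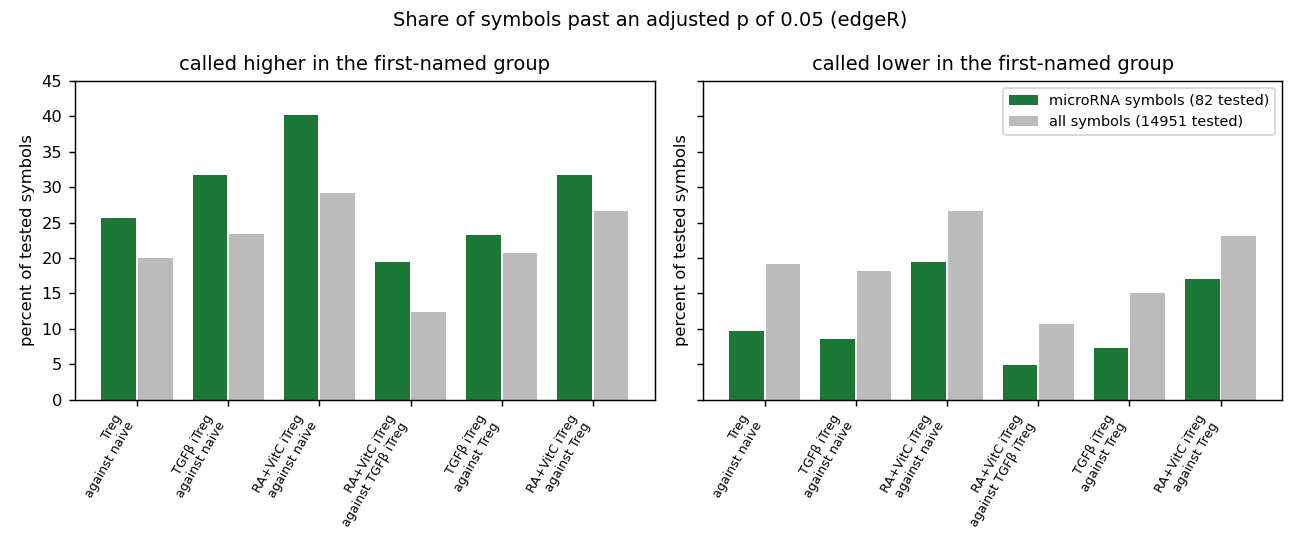
Percent of tested symbols past an edgeR adjusted p of 0.05 in each of 6 comparisons, higher (left) or lower (right) in the group named first, for the 82 microRNA symbols (green) and for all 14951 symbols (grey). The share called higher was 19.5% to 40.2% of microRNA symbols and 12.4% to 29.2% of all symbols, and the share called lower was 4.88% to 19.5% and 10.7% to 26.6%.

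**Figure D2:**
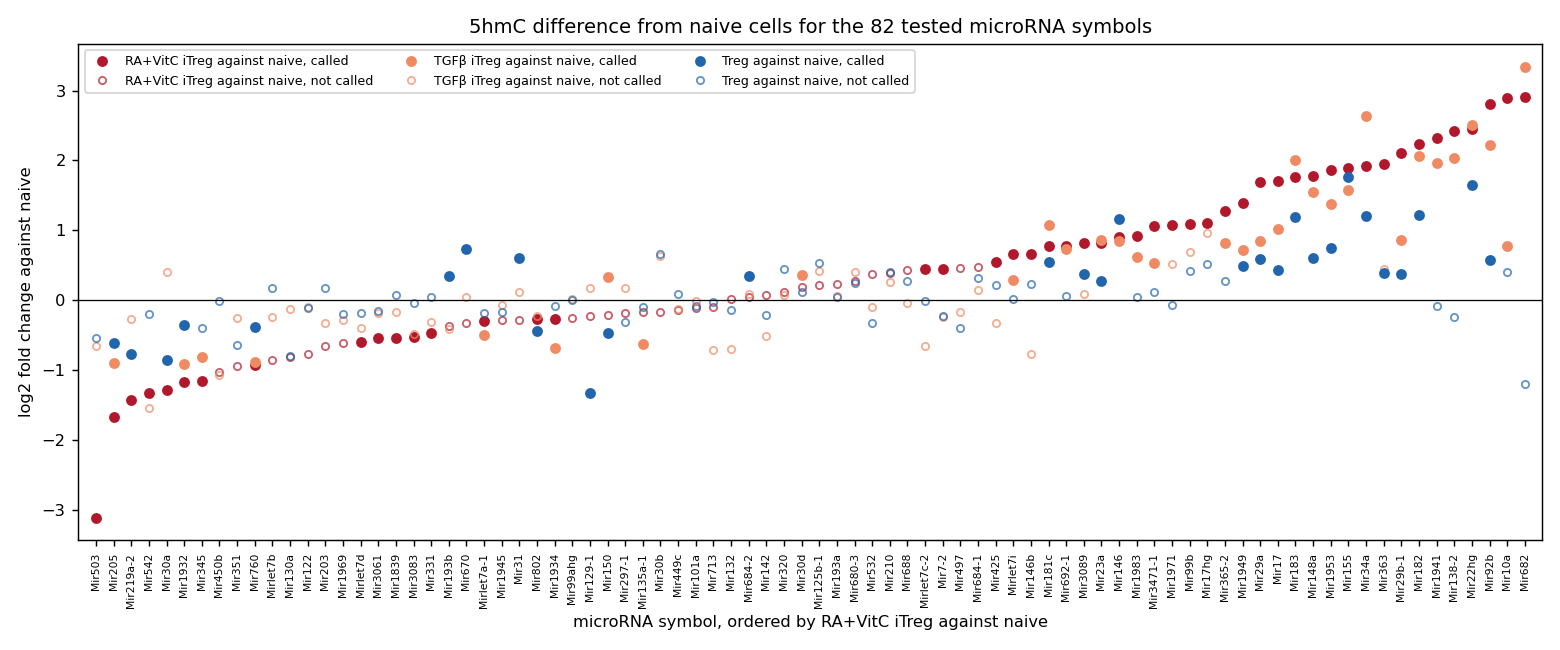
Log2 fold change against naive cells for the 82 tested microRNA symbols, ordered by RA+VitC iTreg, with filled circles for calls and open circles for the rest, in RA+VitC iTreg (red), TGFβ iTreg (orange) and Treg (blue). Mir10a and Mir92b stand at the right, with Mir205 near the left end. The extremes Mir682 and Mir503 rest on a mean of 2.62 and 10.4 reads per library, and their values are named here after they were seen.

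Mir155 encodes miR-155, a microRNA that lymphocytes induce on activation, that Foxp3 is known to bind and that helps regulatory T cells to compete by repressing Socs1. Its 3 regions summed to 107.5 and 118.1 CPM in RA+VitC iTreg, 86.0 and 93.7 CPM in TGFβ iTreg, 101.4 and 104.6 CPM in Treg, and 31.0 and 29.6 CPM in naive cells. All 6 regulatory libraries stood above both naive libraries. The naive pull-downs were also below the naive inputs, which held 71.5 and 71.6 CPM there, whereas the other 6 pull-downs were above their inputs, at 49.2 to 76.4 CPM. The log2 fold change was 1.90 ± 0.09 in RA+VitC iTreg, 1.58 ± 0.12 in TGFβ iTreg and 1.77 ± 0.08 in Treg, each against naive cells, with edgeR adjusted p of 8.82e-41, 1.67e-24 and 1.46e-42. Treg and either iTreg group were not called apart at the sum (log2 0.13 ± 0.08 for RA+VitC iTreg and -0.19 ± 0.10 for TGFβ iTreg).

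Each of the 3 Mir155 regions rose in all 3 regulatory groups. The widest, chr16:84704074-84712594 (mm9, annotated as promoter, ending 682 bp before the transcript), held 63.3 and 67.0 CPM in RA+VitC iTreg, 56.0 and 59.9 CPM in TGFβ iTreg, 58.3 and 61.3 CPM in Treg, and 17.8 and 17.2 CPM in naive cells. The region over the transcript, chr16:84713972-84719236, which also covers part of Mrpl39, a mitochondrial ribosomal protein gene, was 0.84 ± 0.22 higher on the log2 scale in RA+VitC iTreg than in TGFβ iTreg (edgeR adjusted p = 0.0034). The region 10223 bp upstream was 0.78 ± 0.26 higher (adjusted p = 0.042), and the widest region was not called (0.16 ± 0.14). At the sum the difference between both iTreg groups was 0.32 ± 0.10 (edgeR adjusted p = 0.0147), and it was lost with plain library sizes (adjusted p = 0.124), without RA+VitC iTreg replicate 2 and without TGFβ iTreg replicate 1.

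Mir146 encodes miR-146a, which NF-κB induces and which represses Traf6 and Irak1. Sorted Treg held more 5hmC there than the other 3 groups. Its 9 regions summed to 150.9 and 156.8 CPM in RA+VitC iTreg, 147.1 and 147.3 CPM in TGFβ iTreg, 184.7 and 183.6 CPM in Treg, and 77.8 and 85.7 CPM in naive cells. The log2 fold change against naive cells was 0.91 ± 0.07 in RA+VitC iTreg, 0.84 ± 0.09 in TGFβ iTreg and 1.17 ± 0.06 in Treg (edgeR adjusted p 6.43e-23, 1.7e-15 and 3.8e-37). Against Treg, RA+VitC iTreg were 0.26 ± 0.06 lower (adjusted p = 0.000361) and TGFβ iTreg 0.32 ± 0.08 lower (adjusted p = 0.000407).

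The difference between RA+VitC iTreg and Treg at Mir146 lay downstream of the gene. The promoter region, chr11:43188278-43205052, held 103.7 and 111.5 CPM in RA+VitC iTreg against 99.7 and 100.9 CPM in Treg, a log2 difference of 0.10 ± 0.09 that was not called. The region 23712 bp downstream held 3.22 and 2.09 CPM in RA+VitC iTreg against 7.92 and 8.62 CPM in Treg, which was 1.63 ± 0.33 lower (edgeR adjusted p = 8.2e-06). The regions 11566 bp and 4012 bp downstream were 0.83 ± 0.15 and 1.11 ± 0.35 lower in RA+VitC iTreg. When only regions within 10 kb of a start were summed, RA+VitC iTreg and Treg were not called apart (adjusted p = 0.838). Mir146b, whose mature form shares the seed GAGAACU with miR-146a, had 9.61 and 7.49 CPM in RA+VitC iTreg, 3.21 and 3.12 CPM in TGFβ iTreg, 7.001 and 5.676 CPM in Treg, and 5.06 and 5.64 CPM in naive cells. It was 1.43 ± 0.44 higher in RA+VitC iTreg than in TGFβ iTreg (edgeR adjusted p = 0.00965), a call that was lost without RA+VitC iTreg replicate 1 or either TGFβ iTreg library (0.0557 to 0.0977).

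Mir10a lies in the Hoxb cluster, and its microRNA is known in mice as one that retinoic acid and TGFβ induce and that regulatory T cells hold at high level. Its single region, chr11:96173870-96179454, covers the gene and also overlaps Hoxb4, so the signal cannot be given to either gene alone. It held 58.0 and 49.8 CPM in RA+VitC iTreg, 11.6 and 13.0 CPM in TGFβ iTreg, 10.2 and 9.01 CPM in Treg, and 7.73 and 6.82 CPM in naive cells. Both RA+VitC iTreg libraries stood far above the other 6. The inputs held 13.61 to 21.99 CPM there, and only the RA+VitC iTreg pull-downs stood above their inputs. The log2 fold change of RA+VitC iTreg was 2.12 ± 0.20 against TGFβ iTreg (edgeR adjusted p = 1.3e-16), 2.49 ± 0.14 against Treg (1.34e-33) and 2.90 ± 0.15 against naive cells (2.89e-38). Treg and naive cells were not called apart (0.41 ± 0.18, adjusted p = 0.0662), and the call of TGFβ iTreg over naive cells (0.77 ± 0.27) was lost without TGFβ iTreg replicate 2 (0.195) or naive replicate 2 (0.0623).

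Mir29a and Mir29b-1 lie side by side on chromosome 6 and encode microRNAs with the seed AGCACCA, known to restrain T-bet, interferon-γ and DNA methyltransferases. Mir29b-1 had 1209 and 1036 CPM in RA+VitC iTreg, 440.5 and 500.8 CPM in TGFβ iTreg, 333.6 and 339.9 CPM in Treg, and 249.5 and 269.8 CPM in naive cells. The groups followed that order without overlap, and each step was called in edgeR. RA+VitC iTreg were 1.25 ± 0.06 above TGFβ iTreg (adjusted p = 1.09e-40), TGFβ iTreg 0.49 ± 0.06 above Treg (1.02e-11) and Treg 0.37 ± 0.05 above naive cells (6.59e-10). Nearly all of this came from 1 region, chr6:31020440-31075238, which is 54799 bp wide, the widest of the 334, and starts 7346 bp upstream of the gene. The smaller region 4539 bp upstream rose only in RA+VitC iTreg among the calls, with 12.01 and 9.267 CPM, against 2.979 and 1.497 CPM in TGFβ iTreg and 2.69 and 3.60 CPM in naive cells.

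Mir29a, with regions of its own in the table, showed the same order of groups. It had 81.3 and 63.5 CPM in RA+VitC iTreg, 36.6 and 43.7 CPM in TGFβ iTreg, 32.7 and 35.2 CPM in Treg, and 22.8 and 22.3 CPM in naive cells. RA+VitC iTreg were 0.84 ± 0.14 above TGFβ iTreg on the log2 scale (edgeR adjusted p = 7.21e-07) and 1.69 ± 0.11 above naive cells (4.85e-29). TGFβ iTreg and Treg were not called apart (0.25 ± 0.15, adjusted p = 0.185). The region over both genes, chr6:31011017-31016436, held 34.3 and 29.0 CPM in RA+VitC iTreg, 14.3 and 19.0 CPM in TGFβ iTreg, 14.8 and 16.5 CPM in Treg, and 7.82 and 8.74 CPM in naive cells.

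**Figure D3:**
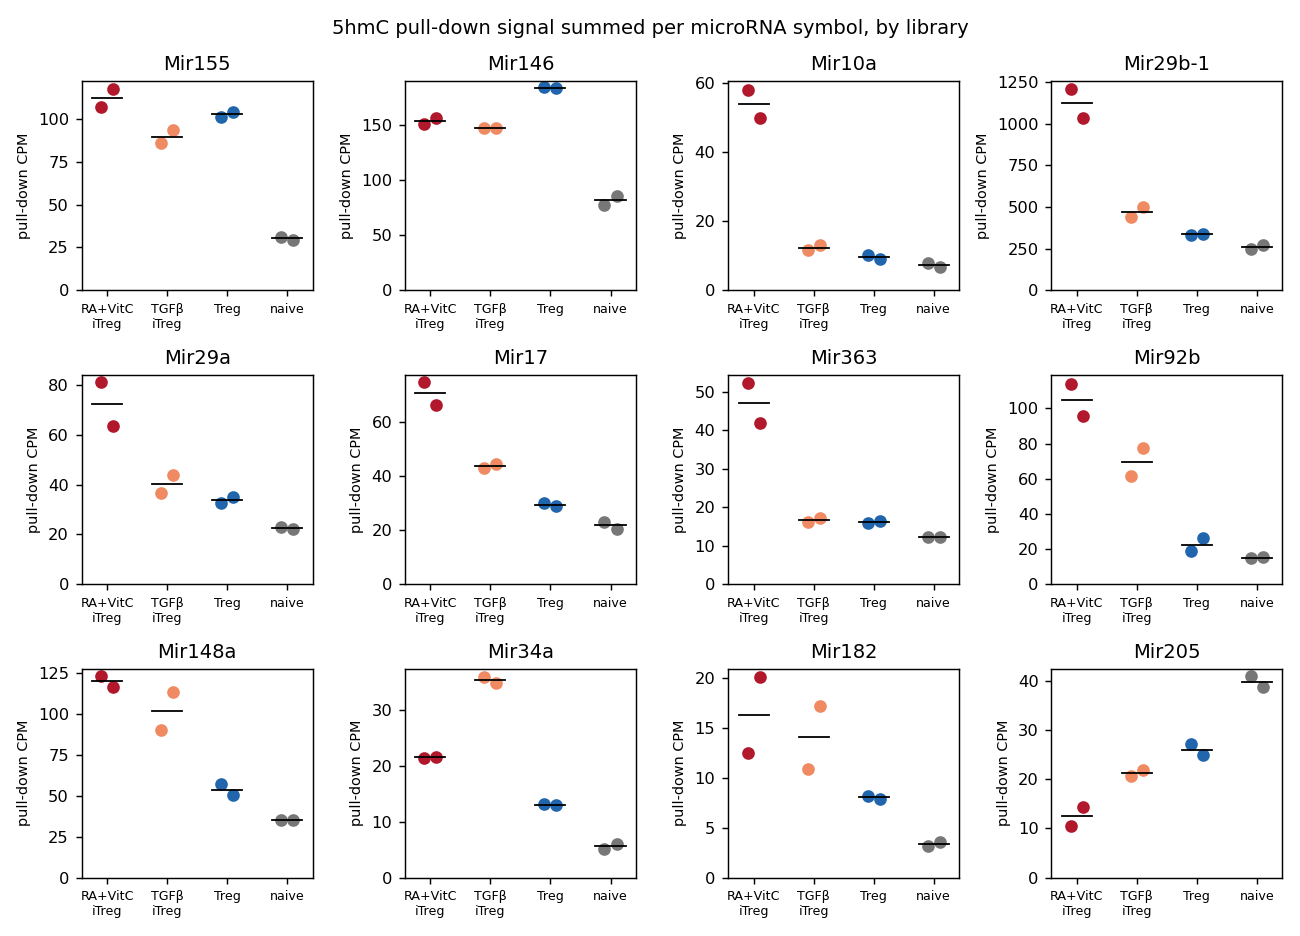
Pull-down CPM (TMM scaled) summed over the regions of 12 microRNA symbols, with each dot 1 library, each bar the mean of 2, and a separate axis from 0 per panel. Mir10a and Mir363 are high in both RA+VitC iTreg libraries alone, Mir155 is low in both naive libraries alone, and Mir205 is highest in naive cells.

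Mir17 heads a cluster of microRNAs known for driving T cell growth by repressing Bim. Its 7 regions summed to 74.6 and 66.2 CPM in RA+VitC iTreg, 43.0 and 44.2 CPM in TGFβ iTreg, 29.8 and 28.6 CPM in Treg, and 23.1 and 20.4 CPM in naive cells. All 6 pairs of groups were called in this order, from 0.43 ± 0.11 for Treg against naive cells (edgeR adjusted p = 0.000767, lost without naive replicate 2 at 0.0563) to 1.703 ± 0.110 for RA+VitC iTreg against naive cells (1.71e-29). The region 3604 bp upstream, chr14:115436656-115439288, carried most of the rise, with 39.9 and 34.1 CPM in RA+VitC iTreg, 17.3 and 20.5 CPM in TGFβ iTreg, 10.1 and 11.8 CPM in Treg, and 6.41 and 4.73 CPM in naive cells. The region over the microRNAs themselves, chr14:115442208-115445197, rose less, by 1.21 ± 0.22 in RA+VitC iTreg against naive cells (adjusted p = 5.4e-07). That region also overlaps the transcript of Mir17hg, the host gene of the cluster, placed at chr14:115443527-115445950, but was counted under Mir17. The 2 regions counted under Mir17hg lay off that transcript, at 3456 and 4923 bp. Their sum was 2.02 to 4.80 CPM in all libraries. It was called only in RA+VitC iTreg against naive cells (edgeR adjusted p = 0.011, lost without either RA+VitC iTreg library or naive replicate 2).

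Mir363 belongs to the related cluster on the X chromosome. It had 52.4 and 42.0 CPM in RA+VitC iTreg, 16.1 and 17.2 CPM in TGFβ iTreg, 15.8 and 16.3 CPM in Treg, and 12.3 and 12.2 CPM in naive cells. As at Mir10a, the 2 RA+VitC iTreg libraries stood above all others, by 1.502 ± 0.192 on the log2 scale against TGFβ iTreg (edgeR adjusted p = 1.02e-10) and by 1.56 ± 0.13 against Treg (9.82e-21). TGFβ iTreg and Treg were not called apart (0.06 ± 0.22). Its region over the cluster, chrX:50094291-50096749, which also covers Mir18b, Mir20b, Mir19b-2 and Mir92-2, held 35.7 and 28.4 CPM in RA+VitC iTreg against 8.34 and 10.5 CPM in TGFβ iTreg.

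Mir92b encodes a microRNA that shares the seed AUUGCAC with miR-363, and it had another pattern. Its region held 114.2 and 95.6 CPM in RA+VitC iTreg, 61.6 and 77.6 CPM in TGFβ iTreg, 18.6 and 26.2 CPM in Treg, and 14.8 and 15.2 CPM in naive cells. Both cultured groups stood well above both sorted groups, by 1.64 ± 0.14 on the log2 scale for TGFβ iTreg against Treg (edgeR adjusted p = 3.79e-20) and 2.22 ± 0.11 for RA+VitC iTreg against Treg (9.67e-41). The region, chr3:89030792-89040339, also spans parts of Muc1, a mucin gene, and Trim46, so its signal cannot be given to Mir92b alone.

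Mir148a encodes miR-148a, a microRNA of activated T helper cells known in mouse Th1 cells to repress Bim. Its 19 regions summed to 123.5 and 116.9 CPM in RA+VitC iTreg, 90.5 and 113.5 CPM in TGFβ iTreg, 57.2 and 50.5 CPM in Treg, and 35.2 and 35.1 CPM in naive cells. The iTreg groups did not overlap but were not called apart (0.22 ± 0.10, adjusted p = 0.106), while TGFβ iTreg were 0.94 ± 0.11 above Treg (edgeR adjusted p = 1.34e-13) and Treg 0.61 ± 0.09 above naive cells (3.49e-09). Large fold changes lay far from the gene. The region 164023 bp downstream, chr6:51054453-51055787, held 15.8 and 14.7 CPM in RA+VitC iTreg, 8.34 and 13.0 CPM in TGFβ iTreg, 1.28 and 0.709 CPM in Treg, and 0.513 and 0.617 CPM in naive cells.

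That distal region was 4.69 ± 0.35 higher on the log2 scale in RA+VitC iTreg and 4.196 ± 0.445 higher in TGFβ iTreg, each against naive cells (edgeR adjusted p 2.1e-39 and 3.1e-19), and Treg and naive cells were not called apart there (0.76 ± 0.57). The regions 174841 bp and 191774 bp downstream were 2.91 ± 0.29 and 3.54 ± 0.38 higher in RA+VitC iTreg against naive cells. The region over the Mir148a transcript, chr6:51218938-51219968, was 2.25 ± 0.29 higher in RA+VitC iTreg (adjusted p = 3.9e-13) and was not called in TGFβ iTreg (0.96 ± 0.46) or Treg (0.28 ± 0.33). The region 117770 bp downstream went the other way, 1.28 ± 0.43 lower in RA+VitC iTreg (adjusted p = 0.011). Assignment of such distant regions to Mir148a is the table's and was not tested.

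**Figure D4:**
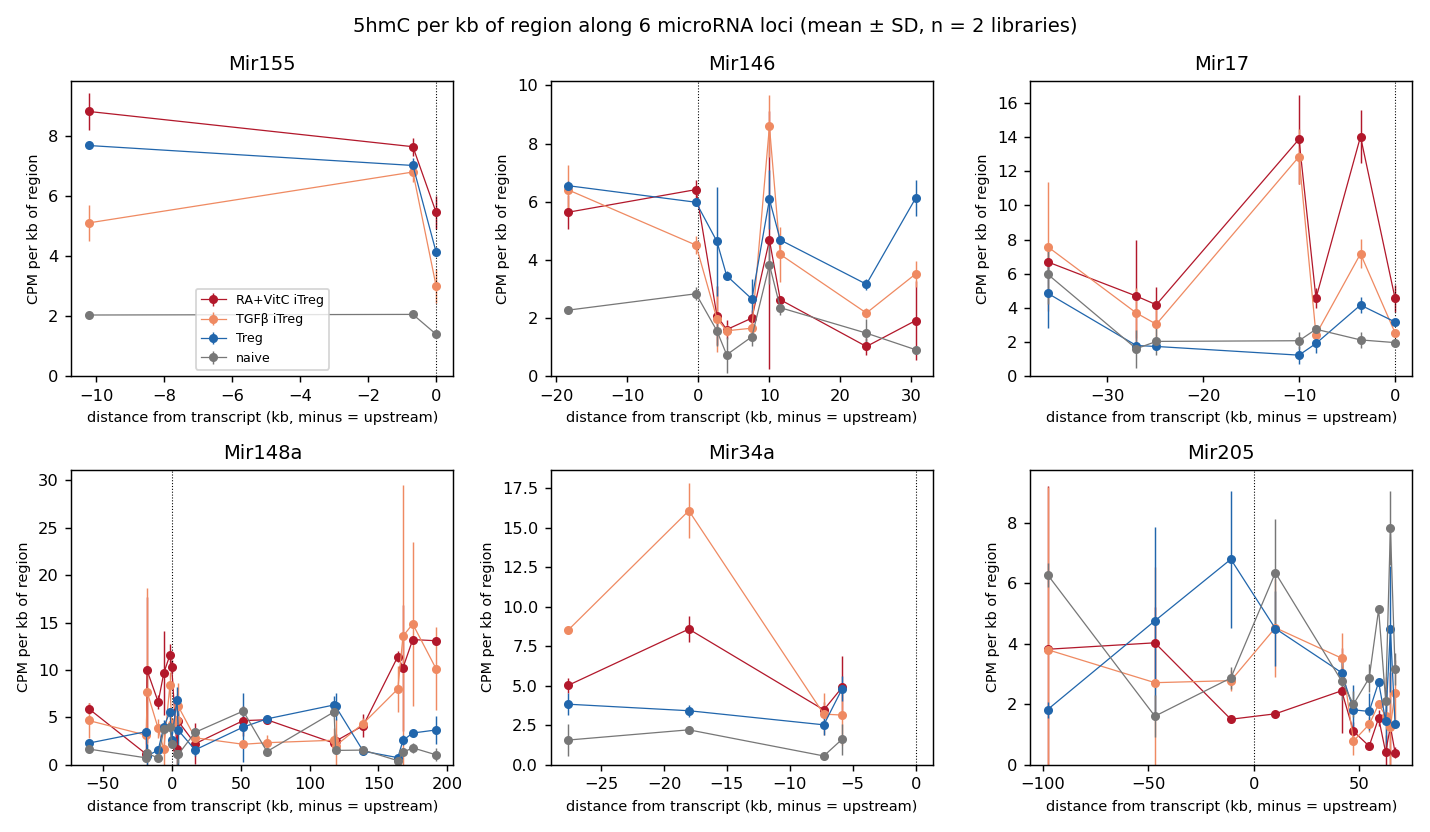
Pull-down CPM per kb of region (mean ± SD, n = 2 libraries) against distance from the microRNA transcript in kb, with negative values upstream, for 6 symbols, where each point is 1 region and lines join regions of 1 group. At Mir155 all 3 regulatory groups lie above naive cells in every region, and at Mir148a the iTreg groups (red and orange) separate from Treg and naive cells at the far downstream end.

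Mir34a, Mir182, Mir183 and Mir22hg were all higher in the 3 regulatory groups than in naive cells. For Treg, the calls of Mir34a and Mir22hg were lost when thinned to equal depth (edgeR adjusted p 0.259 and 0.13). Mir34a, a target of p53, had 21.6 and 21.6 CPM in RA+VitC iTreg, 36.0 and 34.9 CPM in TGFβ iTreg, 13.2 and 13.0 CPM in Treg, and 5.20 and 6.07 CPM in naive cells. It was the one of these that RA+VitC iTreg held below TGFβ iTreg with a call (-0.71 ± 0.19, edgeR adjusted p = 0.00177). The region 18028 bp upstream, chr4:149423191-149424534, held 12.3 and 10.8 CPM in RA+VitC iTreg against 23.2 and 20.0 CPM in TGFβ iTreg. With only regions within 10 kb of a start the difference between the iTreg groups at Mir34a was 0.06 and not called, and neither iTreg group was called apart from Treg. Mir449c, whose microRNA shares the seed GGCAGUG with miR-34a, was called in no comparison at the sum, though 1 of its regions was lower in RA+VitC iTreg against Treg and against naive cells, and it had 37.9 to 56.5 CPM in all 8 libraries.

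Mir182 and Mir183 belong to 1 cluster, of which miR-182 is known to be induced by IL-2 through Stat5 and to repress Foxo1. Mir182 had 12.5 and 20.1 CPM in RA+VitC iTreg, 10.9 and 17.2 CPM in TGFβ iTreg, 8.21 and 7.90 CPM in Treg, and 3.20 and 3.62 CPM in naive cells. The 2 libraries of each iTreg group lay far apart, and the call of TGFβ iTreg over Treg (0.83 ± 0.27) was lost without TGFβ iTreg replicate 2 (adjusted p = 0.483), as was that of RA+VitC iTreg over Treg without RA+VitC iTreg replicate 2 (0.0595). Mir183 had 15.2 and 15.0 CPM in RA+VitC iTreg, 19.9 and 16.1 CPM in TGFβ iTreg, 10.8 and 9.62 CPM in Treg, and 3.86 and 4.90 CPM in naive cells. All 3 regulatory groups were above naive cells at both genes in edgeR, from 1.19 ± 0.21 for Mir183 in Treg to 2.24 ± 0.24 for Mir182 in RA+VitC iTreg. The inputs held 10.66 to 21.94 CPM at Mir183, and only RA+VitC iTreg replicate 2 stood above its input there (14.99 against 10.66 CPM). At Mir182 the iTreg pull-downs were above their inputs, and the Treg and naive pull-downs below theirs. The part of background in these values was not tested. At Mir183 the call of RA+VitC iTreg over Treg (0.57 ± 0.20) was lost with plain library sizes (adjusted p = 0.073), with DESeq2 (0.0988) and without either RA+VitC iTreg library or Treg replicate 2 (0.0569 to 0.0782), and its sign turned when thinned to equal depth. The call of TGFβ iTreg over Treg there was lost without TGFβ iTreg replicate 1 (0.0994) and when thinned (0.314).

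Mir22hg is the host transcript of miR-22. Its single region had 10.8 and 10.2 CPM in RA+VitC iTreg, 11.6 and 10.4 CPM in TGFβ iTreg, 5.65 and 6.29 CPM in Treg, and 2.27 and 1.60 CPM in naive cells. On the log2 scale, RA+VitC iTreg were 2.45 ± 0.31, TGFβ iTreg 2.51 ± 0.37 and Treg 1.65 ± 0.29 above naive cells (edgeR adjusted p 5.62e-12, 4.06e-09 and 9.56e-07), and the iTreg groups were not called apart (-0.06 ± 0.31). The region, chr11:75277208-75279183 in mm9, lies inside the Mir22hg transcript and overlaps Mir22 and Tlcd2, so its signal cannot be given to 1 gene alone.

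Mir138-2 and Mir1941 were higher in both cultured groups than in both sorted ones. Mir138-2 had 31.5 and 25.8 CPM in RA+VitC iTreg, 20.6 and 22.9 CPM in TGFβ iTreg, 4.31 and 4.69 CPM in Treg, and 5.33 and 5.33 CPM in naive cells. The log2 fold change against Treg was 2.66 ± 0.20 in RA+VitC iTreg and 2.27 ± 0.25 in TGFβ iTreg (edgeR adjusted p 5.7e-25 and 9.27e-14). Treg and naive cells were not called apart at the sum of Mir138-2 (-0.24 ± 0.24), though 1 of its 2 regions was called higher in Treg. Mir1941 had 20.7 and 17.7 CPM in RA+VitC iTreg, 18.62 and 11.97 CPM in TGFβ iTreg, 3.90 and 3.33 CPM in Treg, and 2.80 and 4.69 CPM in naive cells. With only regions within 10 kb of a start, TGFβ iTreg and Treg were not called apart at Mir1941 (1.69, adjusted p = 0.127). Its transcript in the table spans chr15:101153319-101236265, far longer than a microRNA hairpin, and its largest region lay in an intron of that transcript.

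Mir23a, whose family restrains T helper cytokines, had 135.5 and 111.5 CPM in RA+VitC iTreg, 120.7 and 134.3 CPM in TGFβ iTreg, 79.0 and 90.3 CPM in Treg, and 71.8 and 68.7 CPM in naive cells. It rose by 0.82 ± 0.08 in RA+VitC iTreg and 0.87 ± 0.10 in TGFβ iTreg against naive cells (edgeR adjusted p 3.46e-17 and 4.05e-14). The iTreg groups overlapped and were not called apart.

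The 5 let-7 genes share the seed GAGGUAG and restrain growth genes, under the control of Lin28 proteins. Mirlet7i had 80.4 and 73.1 CPM in RA+VitC iTreg, 60.4 and 58.3 CPM in TGFβ iTreg, 48.6 and 49.6 CPM in Treg, and 49.95 and 47.29 CPM in naive cells. RA+VitC iTreg were 0.64 ± 0.09 above Treg and 0.66 ± 0.09 above naive cells (edgeR adjusted p 1.54e-09 and 3.32e-10), while its calls of TGFβ iTreg over naive cells and of RA+VitC iTreg over TGFβ iTreg were lost with plain library sizes (0.108 and 0.107). Mirlet7a-1 had 33.8 and 26.4 CPM in RA+VitC iTreg and 27.61 and 24.99 CPM in TGFβ iTreg, against 36.4 and 37.3 CPM in naive cells, with calls that were each lost when 1 library was left out. Mirlet7c-2 was 1.10 ± 0.33 higher in RA+VitC iTreg than in TGFβ iTreg (edgeR adjusted p = 0.00674), a call lost without RA+VitC iTreg replicate 1 or TGFβ iTreg replicate 1. Mirlet7d was called only as lower in RA+VitC iTreg than in naive cells, at 0.59 ± 0.23 and not without RA+VitC iTreg replicate 1, and Mirlet7b was called nowhere.

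Mir205, known mainly from epithelia, where it represses Zeb1 and Zeb2, had 10.5 and 14.4 CPM in RA+VitC iTreg, 20.6 and 21.9 CPM in TGFβ iTreg, 27.1 and 24.8 CPM in Treg, and 40.9 and 38.7 CPM in naive cells. The groups did not overlap, and all 3 regulatory groups fell against naive cells, by 1.68 ± 0.15, 0.90 ± 0.17 and 0.62 ± 0.10 on the log2 scale in RA+VitC iTreg, TGFβ iTreg and Treg (edgeR adjusted p 7.99e-19, 3.53e-06 and 1.56e-07). TGFβ iTreg and Treg were not called apart (-0.28 ± 0.18). The Mir205 inputs held 33.37 to 43.88 CPM, and only naive replicate 1 stood above its input (40.9 against 35.4 CPM). No Mir205 region touched the gene, and the region with the most reads, chr1:195271744-195274333, lay 59100 bp downstream, with 3.52 and 4.48 CPM in RA+VitC iTreg, 5.36 and 4.99 CPM in TGFβ iTreg, 7.28 and 6.85 CPM in Treg, and 13.3 and 13.3 CPM in naive cells.

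Mir1932 had 30.9 and 34.5 CPM in RA+VitC iTreg, 32.8 and 44.2 CPM in TGFβ iTreg, 60.5 and 55.3 CPM in Treg, and 72.2 and 75.1 CPM in naive cells. The fall was 1.18 ± 0.11 in RA+VitC iTreg and 0.92 ± 0.13 in TGFβ iTreg against naive cells (edgeR adjusted p 7.39e-19 and 1.02e-09). It lay mainly in the region 3073 bp downstream, chr11:119254949-119260219, whereas the small region 685 bp downstream rose by 1.47 ± 0.44 in RA+VitC iTreg. Such mixed calls within 1 symbol were found for 10 of 54 symbols with called regions in RA+VitC iTreg against naive cells, and for 3 of 32 in Treg against naive cells. The same count was not taken over all symbols, so these numbers do not set microRNA genes apart from other genes.

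Mir150 had 40.8 and 36.9 CPM in RA+VitC iTreg, 46.2 and 65.1 CPM in TGFβ iTreg, 31.0 and 33.4 CPM in Treg, and 43.6 and 45.8 CPM in naive cells. Treg were 0.47 ± 0.10 below naive cells (edgeR adjusted p = 1.56e-05), a call lost when thinned to equal depth (-0.486, adjusted p = 0.0512). The region 5766 bp upstream was 1.37 ± 0.19 lower in Treg (8e-11), while the region over the gene was not called (-0.24 ± 0.11). The call of TGFβ iTreg over naive cells (0.34 ± 0.13) was lost without TGFβ iTreg replicate 2 (0.887) and with plain library sizes. Mir31, known in mice to act in peripherally induced regulatory T cells through Gprc5a, had 6.12 and 5.70 CPM in RA+VitC iTreg, 8.99 and 6.77 CPM in TGFβ iTreg, 11.4 and 10.5 CPM in Treg, and 8.39 and 6.18 CPM in naive cells. At Mir31, RA+VitC iTreg were 0.89 ± 0.25 below Treg (edgeR adjusted p = 0.00178).

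Mir142, Mir101a, Mir132, Mir125b-1, Mir210 and Mir30b, also well known in T cells, were not called at the sum in any comparison. Mir142, of the blood lineage, had 10.4 to 18.7 CPM over the 8 libraries, and Mir101a, which restrains Icos, had 40.2 to 51.9 CPM. Of the 7 tested regions of Mir101a, however, 2 were higher and 3 lower in RA+VitC iTreg, 1 higher and 1 lower in TGFβ iTreg and 1 lower in Treg, each against naive cells. Mir132, Mir125b-1, Mir210 and Mir30b had 1.20 to 8.09 CPM, with standard errors of 0.22 to 0.72 on the log2 scale, which limits what could be detected there. The thinly covered Mir30a fell in Treg (-0.86 ± 0.32) and RA+VitC iTreg (-1.28 ± 0.44) relative to naive cells (edgeR adjusted p 0.02455 and 0.009861). With TGFβ iTreg set against Treg, Mir30a rose by 1.26 ± 0.46 (0.02184). These Mir30a calls were each lost when 1 library was left out. Mir30d rose by 0.37 ± 0.15 from naive cells to TGFβ iTreg (edgeR adjusted p = 0.03562), a call lost with plain library sizes (0.0717). Of a list of 68 microRNAs and host genes with known parts in T cells, 27 were in the table and all 27 were tested. In RA+VitC iTreg against naive cells 14 of the 27 were higher and 3 lower, where 29.2% and 26.6% of all symbols were. In TGFβ iTreg the counts were 13 and 1, beside 23.4% and 18.2% of all symbols, and in Treg 10 and 2, beside 20% and 19.2%. Their median log2 fold changes were 0.45, 0.40 and 0.37, against -0.02, -0.02 and -0.00 over all symbols. In RA+VitC iTreg against TGFβ iTreg 8 were higher and 3 lower, beside 12.4% and 10.7% of all symbols.

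Of the genes of the microRNA machinery 23 were tested. Among them 5 were higher and 6 lower in RA+VitC iTreg against naive cells, beside 29.2% and 26.6% of all symbols. The counts were 2 and 6 in TGFβ iTreg, beside 23.4% and 18.2%, and 4 and 6 in Treg, beside 20% and 19.2%, with medians of -0.01, -0.01 and 0.00. Drosha, the nuclease that makes the first cut, had 135.2 and 136.4 CPM in RA+VitC iTreg, 159.9 and 169.2 CPM in TGFβ iTreg, 162.5 and 168.4 CPM in Treg, and 240.0 and 232.2 CPM in naive cells, and it fell in all 3 groups, by 0.80 ± 0.06, 0.52 ± 0.07 and 0.51 ± 0.05. Tnrc6c, a partner of Argonaute, fell in all 3 as well, and Ran, which serves nuclear export of the precursors, rose by 0.84 ± 0.13 in RA+VitC iTreg. Dicer1 was not called in any comparison. Lin28b, which blocks let-7 processing, rose in TGFβ iTreg against naive cells by 1.76 ± 0.38 (edgeR adjusted p = 5.01e-05), with 5.78 and 12.5 CPM in TGFβ iTreg against 1.87 and 3.52 CPM in naive cells.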

How the data were processed

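The deposited table gives raw read counts per region for 8 pull-down and 8 input libraries. The authors used mm9 and MACS2 2.1.0.20151222, along with Trim Galore 0.4.2, per the submitters' processing notes, which also list SAMtools 1.7 and bcl2fastq 2.20.0.442. Per the table's name, regions are the union of broad peaks at a q of 0.01. For the aligner, the read counter and any pooling before peak calling: not given in the sources used here. Reads carry no molecular identifiers, so counts are not independent molecules.

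Counts were summed per gene symbol and also tested region by region with edgeR 4.0.16 (R 4.3.3): filterByExpr at a minimum count of 10, TMM scaling, a quasi-likelihood F test over the 8 pull-downs with group as the only term and 4 residual degrees of freedom, and Benjamini-Hochberg adjustment over all features tested. The standard error is the log2 fold change over the square root of F. Inputs were fitted separately. The RA+VitC and TGFβ iTreg libraries share a pair of label suffixes of unstated meaning, named replicates 1 and 2 here, so a shared batch or day is possible. The replicate differences of Treg and naive cells had a correlation of 0.00806, and those of the iTreg groups 0.00525. Replicate pull-downs differed little beyond counting noise (chi-square over degrees of freedom 1.12 to 1.23), so these correlations say little about a shared batch. Replicate was not in the fit. MicroRNAs were named where adjusted p was under 0.05, mean reads were at least 20 and libraries did not overlap, taking the 5 largest and 5 smallest fold changes per comparison, plus fixed lists of T cell microRNAs and machinery genes. The members and lists were chosen with earlier results of these data known. On data simulated for Treg against naive cells, the groups with the most pull-down reads, 200 of 14777 symbols and 200 of 123200 regions were changed. The changed features had a mean of at least 20 reads, and all features of a level shared 1 dispersion. Of the changes, 96% of 2-fold and 100% of 4-fold ones were recovered for symbols, and 83% and 99% for regions. Recovery for thinner features and for the iTreg comparisons was not simulated. Alternatives were DESeq2 1.42.0, plain library sizes, other filters, thinning to 1648804 reads, a replicate block, leaving out each library and regions within 10 kb of a start.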

Additional observations from a re-analysis of the deposited data

How the results depend on the processing

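Counts of called microRNA symbols and regions kept within 1.5 times the reported count except as follows, and the cause was not tested beyond the fewer reads or features that thinning and stricter filters leave by construction. Thinned to equal depth (57 symbols, 97 regions tested), symbols higher were 9 in Treg and 17 in TGFβ iTreg against naive cells. Symbols lower were then 4 for RA+VitC iTreg, 4 for TGFβ iTreg and 2 for Treg against naive cells, and 5 in RA+VitC iTreg against Treg. Regions higher and lower were 37 and 6 for RA+VitC iTreg, 31 and 7 for TGFβ iTreg and 11 and 0 for Treg against naive cells, 20 and 7 in TGFβ iTreg and 27 and 10 in RA+VitC iTreg against Treg, and 12 were higher in RA+VitC iTreg against TGFβ iTreg. With a mean of at least 50 reads (45 symbols, 43 regions tested), 5 symbols were lower in Treg against naive cells, and regions higher and lower were 24 and 7 for RA+VitC iTreg, 25 and 4 for TGFβ iTreg and 21 and 2 for Treg against naive cells, 12 and 5 in TGFβ iTreg and 17 and 7 in RA+VitC iTreg against Treg, with 12 higher in RA+VitC iTreg against TGFβ iTreg. DESeq2 called 4, 4 and 7 symbols lower in Treg, TGFβ iTreg and RA+VitC iTreg against naive cells, and 3 and 7 in TGFβ iTreg and RA+VitC iTreg against Treg. It called 22 regions higher and 2 lower in Treg, 5 lower in TGFβ iTreg, and 11 lower for RA+VitC iTreg against naive cells, 0 lower in RA+VitC iTreg against TGFβ iTreg, 20 higher and 5 lower in TGFβ iTreg and 8 lower in RA+VitC iTreg against Treg. Plain library sizes gave 12 symbols lower in TGFβ iTreg against naive cells and 10 against Treg, and 7 regions lower in RA+VitC iTreg against TGFβ iTreg and 41 against Treg. With no filter, 2 regions were lower in RA+VitC iTreg against TGFβ iTreg. With regions within 10 kb of a start, 5 symbols were lower in Treg against naive cells and 2 in RA+VitC iTreg against TGFβ iTreg.

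The replicate block, on numbers that the labels do not state to pair the libraries, moved 1 count by more than 1.5 times, to 16 regions lower in RA+VitC iTreg against Treg. Of the calls at named or listed symbols, the block kept 100 and lost 14. DESeq2 kept 87 and lost 25, and plain library sizes kept 105 and lost 9. Thinning kept 75, lost 30 and turned the sign of 2. Signs turned for Mir760 in Treg against naive cells (0.0568, thinned), Mir183 in RA+VitC iTreg against Treg (-0.124, thinned) and Mir34a in RA+VitC iTreg against TGFβ iTreg (0.0569, within 10 kb), none of them called there.

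With 1 library left out, symbols higher and lower ranged over 15 to 17 and 6 to 6 for Treg, 19 to 24 and 5 to 8 for TGFβ iTreg, and 28 to 30 with 10 to 14 for RA+VitC iTreg against naive cells, 9 to 14 and 1 to 4 in RA+VitC iTreg against TGFβ iTreg, 13 to 18 and 2 to 6 for TGFβ iTreg and 23 to 25 and 8 to 13 for RA+VitC iTreg against Treg. Regions ranged over 29 to 33 and 7 to 11, 32 to 48 and 7 to 17, 76 to 77 and 23 to 28, 11 to 19 and 0 to 2, 14 to 27 and 6 to 10, and 50 to 54 and 12 to 20 in the same comparisons. The lone library left in a group is assumed to vary like the other groups. The 2 TGFβ iTreg pull-downs hold the fewest reads and limit the comparisons that use them.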
